A study of Homo sapiens with 3 samples.

Results

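The 10 genes described here, FTH1, FTL, TFRC, TFR2, HFE, HAMP, SLC40A1, SLC11A2, IREB2 and HMOX1, handle the uptake, storage and export of iron. They were chosen by name, and each matched 1 row among the 39320 gene rows on the standard chromosomes and other references with plain names. The polyA RNA of cells labelled HepG2, the name of an established line from a human liver cancer, was sequenced in replicates 1 to 3, all labelled wild-type, so the 3 libraries form 1 condition. The hepatocyte marker genes given below go against this label. The cells were grown in medium with fetal bovine serum, and no iron treatment is named. The labels do not say whether the replicates came from separate cultures, so the spread between them may be technical.

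Liver cells take up iron bound to transferrin through the transferrin receptor, store it in ferritin and release it through ferroportin, the only known cellular iron exporter. The liver also makes hepcidin, a peptide hormone that brings about the removal of ferroportin from the cell surface. Iron-regulatory proteins bind a hairpin in mRNA, the iron-responsive element (IRE), when iron is scarce. Binding near the 5′ end of ferritin mRNA blocks its translation, and binding in the 3′ untranslated region (UTR) of the transferrin receptor mRNA protects it from decay.

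The hairpins found in FTH1, FTL, TFRC and SLC40A1 are shown because these proteins bind elements of this kind. The search used a fixed pattern, so these genes may hold further elements that it did not match. SLC11A2 is also a known target, with an element in the 3′ UTR of some of its transcripts that the search below did not match. The annotated GENCODE v44 transcripts of the 10 genes were searched on the transcribed strand for a C, then 5 bases of any kind, then CAGTGN and 5 bases that pair with the 5 before CAGTGN, with G-T pairs allowed. Each line gives 29 bases, 5′ to 3′, in the DNA alphabet, with the 6 bases of the loop in capitals.
FTH1, 5′ UTR, chr11:61967574-61967602, minus strand: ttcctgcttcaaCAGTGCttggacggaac
FTL, 5′ UTR, chr19:48965335-48965363, plus strand: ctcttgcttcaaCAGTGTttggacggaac
SLC40A1, 5′ UTR, chr2:189580661-189580689, minus strand: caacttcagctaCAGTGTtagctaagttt
TFRC, 3′ UTR, chr3:196050979-196051007, minus strand: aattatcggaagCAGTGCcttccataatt
TFRC, 3′ UTR, chr3:196050575-196050603, minus strand: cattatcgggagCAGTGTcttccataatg
TFRC, 3′ UTR, chr3:196050510-196050538, minus strand: ctgtatcggagaCAGTGAtctccatatgt
TFRC, 3′ UTR, chr3:196050463-196050491, minus strand: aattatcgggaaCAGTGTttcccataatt

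All 7 windows matched the GRCh38 sequence at these positions. The ferritin hairpins shared 26 of 29 bases with each other. The 4 hairpins found in TFRC shared 18 to 25 bases among themselves and 9 to 13 with those of ferritin. The SLC40A1 hairpin shared 13 bases with that of FTH1, 14 with that of FTL and 13 to 16 with those of TFRC. The C and the CAGTG of the pattern are the same in every window by construction and are part of all these counts. Among 19061 MANE Select transcripts, 1 representative transcript per protein-coding gene, 17 held such a hairpin in the 5′ UTR (0.0892%) and 121 in the 3′ UTR (0.635%). Next, UTRs shorter than the member's own were left out, and the others were cut to its length from their 5′ end. The shares were then 0.0803% (5 of 6229) for the 209 nt of FTH1 and 0.0912% (6 of 6580) for the 199 nt of FTL. They were 0.152% (5 of 3293) for the 326 nt of SLC40A1 and 0.81% (34 of 4198) for the 2658 nt of TFRC. Each of these counts includes the member itself. TFRC was the 1 transcript of the 19061 with at least 4 hairpins in its 3′ UTR. The search found none in the annotated transcripts of TFR2, HFE, HAMP, SLC11A2, IREB2 or HMOX1, which says only that these letters with a paired stem are not there. The tables hold 1 value per gene, so whether the sequenced transcripts carried the hairpins was not analysed here.

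The authors deposited 3 values per gene and library. TPM is scaled for transcript length and to the same total in every library, FPKM is scaled for length and library size and is proportional to TPM within a library, and coverage is the mean read depth over a gene, not scaled for library size. Since counts are not among these values, the depth is unknown and counting error cannot be given. The most frequent ratio of coverage to FPKM among genes, which rises with depth, was 13.3, 12.8 and 11.5 in replicates 1, 2 and 3. Many genes had a lower ratio. The mitochondrial tRNA gene TRNC took 17.1% ± 0.161 (SD, n = 3) of all TPM, which lowers every other TPM value by about the same factor.

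The label was checked against 20 genes of secreted hepatocyte proteins, and 18 of them were below 1 TPM in every library. ALB, APOA1, APOB and SERPINA1 were among the 11 listed at 0 in all 3 libraries, and VTN (23.3 ± 0.56 TPM) and RBP4 (10.99 ± 0.508 TPM, SD, n = 3) were the exceptions. The summed level of the list was 34.3 to 36.2 TPM. AFP, a fetal liver protein, had 0, 0.0239 and 0.0248 TPM. These values go against the label, so the identity of the cells is in doubt and HepG2 is used here only as the name on the libraries. Lists of 10 erythroid and 10 macrophage genes, from cells that also handle much iron, were below 1 TPM throughout, with sums of 0.630 to 0.900 and 0.971 to 1.39 TPM. All 15 housekeeping genes were above 10 TPM in every library. In bulk RNA, fewer cells of a type and less RNA per cell cannot be told apart.

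Of the 10 iron genes, 8 had at least 1 TPM in all 3 libraries, whereas 33.8% of all gene rows and 59.5% of protein-coding rows did. At least 10 TPM was reached throughout by 7, against 20.7% of all rows and 40.4% of protein-coding rows. The median of the mean levels was 35.6 TPM over the 10 genes, 0.0619 TPM over all rows and 4.99 TPM over protein-coding rows. These counts are a description, since the genes were picked as well-known iron genes. The plot of levels by gene shows ferritin at the top and SLC40A1 and HAMP at the bottom.

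**Figure D1:**
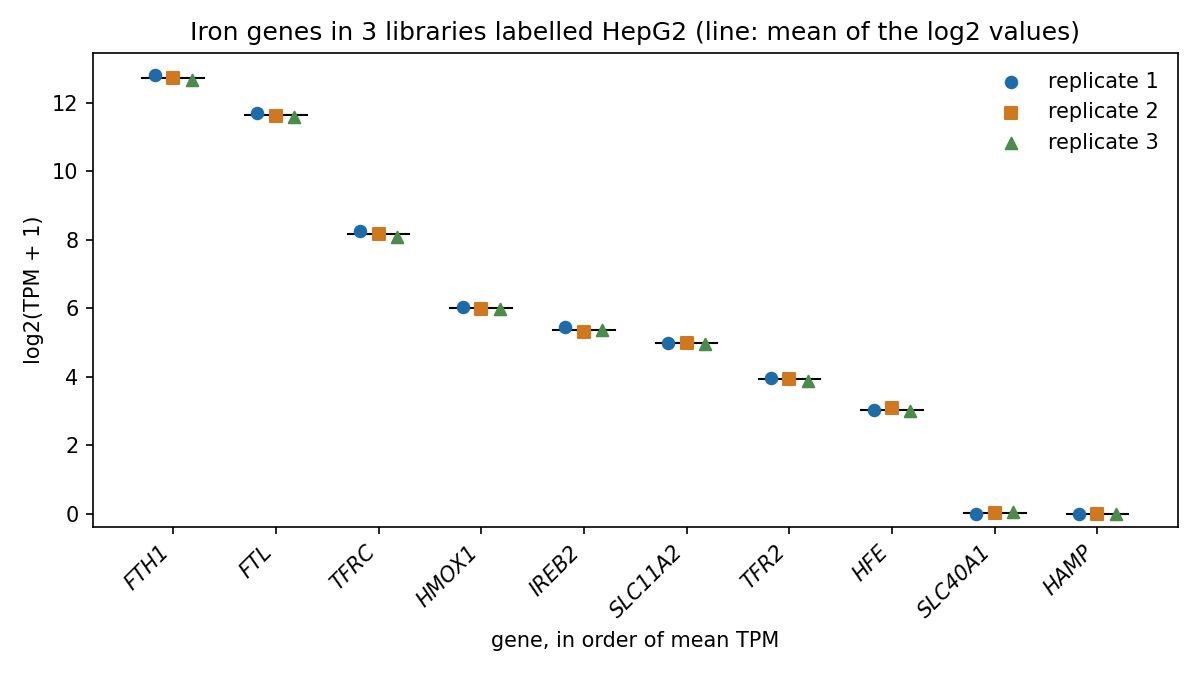
Level of the 10 iron genes in the 3 libraries labelled HepG2, as log2(TPM + 1), in order of mean TPM, with a point per library and a line at the mean of the log2 values. The points of a gene lie close together, and only SLC40A1 and HAMP, at or near 0, share values.

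Ferritin is a shell of heavy chains, which oxidise iron, and light chains, which help to form the iron core. FTH1 encodes the heavy chain. It lies on chromosome 11 at 61964285 to 61967634, minus strand, and its MANE Select transcript has 4 exons and 552 nt of coding sequence. FTH1 had 7195, 6749.7 and 6519.6 TPM in replicates 1, 2 and 3, a mean of 6821 ± 343 TPM (SD, n = 3). It held rank 4 of all gene rows in each library. In FPKM the values were 3398, 3227 and 3124, and the coverage was 45110.5, 41435 and 35833 in the same order. The 2 genes nearest to FTH1 in level over the 3 libraries were GAPDH, a glycolytic enzyme, with 7264 ± 82.8 TPM, and RPS2, a ribosomal protein, with 5856 ± 90.9 TPM (SD, n = 3), at largest differences of 0.16 and 0.29 on the log2(TPM + 1) scale.

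FTL encodes the light chain, on the plus strand of chromosome 19. FTL had 3339, 3148 and 3086 TPM in replicates 1, 2 and 3, a mean of 3191 ± 132 TPM (SD, n = 3). Its ranks were 13, 15 and 16. The FPKM was 1577, 1505 and 1479, and the coverage was 15461, 14301.5 and 12540.5. The deposited row runs from 48963941 to 48966879 and begins 1368 bp before the annotated FTL transcript, which has 4 exons and 528 nt of coding sequence. The genes nearest in level were ACTG1, a cytoplasmic actin, with 3000.4 ± 109 TPM, and TUBA1B, an alpha-tubulin, with 3597 ± 93.5 TPM (SD, n = 3), at largest differences of 0.11 and 0.20 on the log2(TPM + 1) scale.

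The heavy chain exceeded the light chain in 3 of 3 libraries. The log2 ratio of FTL to FTH1 was -1.11, -1.10 and -1.08, with a mean of -1.10 ± 0.01 (SD, n = 3) on the log2(TPM + 1) scale, so that FTH1 was 2.14 times as high by mean TPM. By coverage the mean log2 ratio was -1.53 ± 0.02 (SD, n = 3). FTH1 made up 68.3%, 68.2% and 67.9% of the ferritin TPM. The chains together took 1.05%, 0.990% and 0.961% of all TPM, or 1.00% ± 0.0474 (SD, n = 3). An exact permutation test that flips the signs of the 3 ratios, two-sided, gave p = 0.25, and p = 0.25 after Benjamini-Hochberg adjustment over the 6 gene pairs tested. This is the smallest p that 3 libraries allow, and each of the other pairs below had the same p values.

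Both ferritin genes have many near-identical pseudogene copies in the genome, and how the authors counted reads that match several places is not given in the sources used here. The tables hold 3 ferritin pseudogene rows. FTH1P3 had 0.617, 0.770 and 0.637 TPM, and FTLP10 and FTH1P18 were listed at 0 in all 3 libraries. The row of BEST1, a chloride channel gene on the opposite strand, overlaps that of FTH1 by 179 bp and had 0.334, 0.347 and 0 TPM. The strand setting of the quantification is not given in the sources used here either.

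Of 5 listed genes of ferritin assembly and turnover, 4 were at or above 10 TPM in every library, where 40.4% of protein-coding rows were. PCBP1 and PCBP2, RNA-binding proteins that also deliver iron to ferritin, had 352 ± 7.51 and 329 ± 14.2 TPM (SD, n = 3). NCOA4, the receptor that takes ferritin to the lysosome, had 106 ± 6.89 TPM, and HERC2, a ubiquitin ligase that acts on NCOA4, had 22.6 ± 1.76 TPM (SD, n = 3). FTMT, the mitochondrial ferritin, was listed at 0 in all 3 libraries.

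TFRC encodes the transferrin receptor that most dividing cells use. TFRC had 306, 285 and 270.3 TPM in replicates 1, 2 and 3, a mean of 287 ± 18.0 TPM (SD, n = 3). It exceeded 96.8% of the 13753 genes averaging 1 TPM or more. Its FPKM was 145, 136 and 129.5, and its coverage was 1068, 973 and 826. The row lies on chromosome 3 at 196018694 to 196082161, minus strand, and runs 30590 bp beyond the 3′ end of the MANE Select transcript, which has 19 exons. The genes nearest in level were CCT4, a chaperonin subunit, with 286 ± 14.7 TPM, and LAPTM4B, a lysosomal membrane protein, with 285 ± 15.7 TPM (SD, n = 3), at largest differences of 0.03 and 0.04 on the log2(TPM + 1) scale.

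TFR2 encodes a second transferrin receptor that is typical of hepatocytes and red cell precursors and takes part in iron sensing. TFR2 had 14.7, 14.4 and 13.8 TPM in replicates 1, 2 and 3, or 14.3 ± 0.471 TPM (SD, n = 3). Its FPKM was 6.94, 6.89 and 6.60, and its coverage was 69.1, 66.4 and 56.8. The row lies on chromosome 7 at 100620416 to 100642780, minus strand. TFRC exceeded TFR2 in 3 of 3 libraries, by 4.23 ± 0.05 (SD, n = 3) on the log2(TPM + 1) scale, with values of 4.29, 4.21 and 4.20. By mean TPM this was a 20.1-fold difference. With coverage in place of TPM the mean log2 ratio was 3.87 ± 0.05 (SD, n = 3). TFRC itself was below FTH1 by a log2 ratio of -4.57 ± 0.02 (SD, n = 3), in 3 of 3 libraries, and by -5.42 when coverage was used.

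SLC11A2 encodes DMT1, which moves ferrous iron out of the endosome. SLC11A2 had 30.9, 30.5 and 30.3 TPM in replicates 1, 2 and 3, or 30.6 ± 0.319 TPM (SD, n = 3), and 14.6, 14.6 and 14.5 FPKM. Its coverage was 76.7, 73.8 and 64.3. The row, on chromosome 12 at 50952263 to 51028335, minus strand, runs 33729 bp past the 3′ end of the MANE Select transcript and overlaps that of HIGD1C, on the plus strand, over 20330 bp. HIGD1C had 0, 0.0638 and 0.135 TPM, so little signal was assigned to the overlapping gene.

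Of 14 other uptake genes, 6 had at least 1 TPM in all 3 libraries and 8 were below 1 TPM in all 3. Among protein-coding rows, 59.5% had at least 1 TPM in all 3. SLC39A14, a transporter of iron not bound to transferrin, had 87.8 ± 6.00 TPM (SD, n = 3). STEAP3, the reductase that works beside DMT1, had 46.2 ± 2.15 TPM, and LRP1, a receptor for heme bound to hemopexin, had 40.7 ± 2.09 TPM (SD, n = 3). Relative to its most frequent value, the ratio of coverage to FPKM was 0.198 for SLC39A14, 0.164 for STEAP3 and 0.989 for LRP1. Coverage would thus place LRP1 above SLC39A14 and STEAP3. The 3 hepatocyte plasma proteins on this list were low, with TF, transferrin itself, at 0.0154, 0.0165 and 0 TPM, HP at 0.0867, 0 and 0 TPM, and HPX at 0.236, 0.320 and 0.390 TPM. These genes are also on the list of hepatocyte proteins given above. STEAP1, STEAP2 and CD163 were listed at 0 in all 3 libraries.

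SLC40A1 encodes ferroportin. The TPM values of SLC40A1 were 0 (replicate 1), 0.0113 (replicate 2) and 0.0269 (replicate 3). Its FPKM was 0, 0.00541 and 0.0129, and its coverage was 0, 0.0646 and 0.137. No other row overlaps that of SLC40A1, at 189560590 to 189580811 of chromosome 2, minus strand. The log2 ratio of SLC11A2 to SLC40A1 was 4.96 ± 0.03 (SD, n = 3) in 3 of 3 libraries with a pseudocount of 1 and 8.09 with a pseudocount of 0.1, so its size is set by the pseudocount, and the direction is what was measured. The 3 copper oxidases that work with ferroportin were also below 1 TPM in every library. CP, ceruloplasmin, had 0.0989 ± 0.017 TPM, HEPHL1 had 0.0874 ± 0.0176 TPM, and HEPH had 0.00309 ± 0.00536 TPM (SD, n = 3).

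HAMP encodes hepcidin as a precursor of 84 amino acids. It lies on the plus strand of chromosome 19, from 35282528 to 35285143. HAMP was listed at 0 for TPM, FPKM and coverage in all 3 libraries. The smallest level that these libraries could show is unknown, since no counts are given. HAMP is a hepatocyte product, like the 18 low genes of the hepatocyte list, and the part that the state of these cells has in its value was not tested.

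HFE encodes an MHC class I-like protein that binds the transferrin receptors and takes part in the control of hepcidin. HFE had 7.16, 7.44 and 7.02 TPM in replicates 1, 2 and 3, or 7.21 ± 0.217 TPM (SD, n = 3). In FPKM the values were 3.38, 3.56 and 3.36, and the coverage was 38.8, 38.4 and 32.8. It exceeded 31.7% of the genes averaging 1 TPM or more, whereas TFR2 exceeded 48.1%. These shares depend on the genes counted, and over all gene rows they were 76.1% and 81.9%. The deposited row, on the plus strand of chromosome 6 from 26087281 to 26096216, ends 2127 bp before the MANE Select transcript, whose 3′ UTR is 4117 nt long. It shares 3754 bp with LOC108783645 on the minus strand, which had 0.352, 0.140 and 0 TPM.

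Of 19 other genes in the control of hepcidin, 17 had at least 1 TPM in all 3 libraries, where 59.5% of protein-coding rows did. The median of the list was 9.65 TPM. ID1, a target of BMP signalling, had 72.6 ± 4.56 TPM, STAT3, which carries the interleukin-6 signal, had 67.0 ± 1.83 TPM, and FURIN, which cleaves the hepcidin precursor, had 63.5 ± 3.30 TPM (SD, n = 3). BMP6, the ligand that the iron-loaded liver makes, had 10.2, 9.77 and 8.94 TPM. Hemojuvelin (HJV), a BMP co-receptor, was listed at 0 in all 3 libraries, and TMPRSS6, the liver protease that cleaves it, had 0.0275, 0.0122 and 0.0718 TPM. HJV and TMPRSS6 were the 2 genes of the list below 1 TPM in every library.

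IREB2 encodes IRP2, an iron-regulatory protein controlled by degradation. IREB2 had 42.5, 38.9 and 40.3 TPM in replicates 1, 2 and 3, or 40.6 ± 1.82 TPM (SD, n = 3), 20.1, 18.6 and 19.3 FPKM, and a coverage of 195, 175 and 159.8. The row is on the plus strand of chromosome 15, from 78437431 to 78501456. ACO1, which encodes IRP1, the form that becomes cytosolic aconitase when it carries an iron-sulfur cluster, had 15.4, 14.0 and 14.3 TPM. IREB2 exceeded ACO1 in 3 of 3 libraries, with a log2 ratio of ACO1 to IREB2 of -1.41 ± 0.02 (SD, n = 3) on the log2(TPM + 1) scale. All 7 listed genes of the pathway had at least 10 TPM throughout, where 40.4% of protein-coding rows did. SKP1 and CUL1, parts of the ubiquitin ligase, had 210.1 ± 14.0 and 68.9 ± 2.94 TPM, and CIAO2B, of the cytosolic iron-sulfur machinery, had 94.7 ± 11.2 TPM (SD, n = 3). FBXL5, the iron-sensing subunit that targets IRP2, had 13.6 ± 0.543 TPM (SD, n = 3). The ratio of coverage to FPKM, relative to its most frequent value, was 0.0908 for CUL1 and 0.754 for FBXL5. The levels of these genes are therefore not ordered here.

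HMOX1 encodes the inducible heme oxygenase, which frees iron from heme. HMOX1 had 65.1, 62.6 and 62.0 TPM in replicates 1, 2 and 3, or 63.3 ± 1.65 TPM (SD, n = 3), above 82.7% of the genes averaging 1 TPM or more. Its FPKM was 30.8, 29.9 and 29.7, and its coverage was 408, 385 and 341. The row is on the plus strand of chromosome 22, from 35381096 to 35394207, the same as its MANE Select transcript of 5 exons. HMOX2, the constitutive enzyme, had 68.6, 72.5 and 70.5 TPM. The log2 ratio of HMOX1 to HMOX2 was -0.07, -0.21 and -0.18, a mean of -0.15 ± 0.07 (SD, n = 3), and it reversed to 4.01 ± 0.07 (SD, n = 3) when coverage was used in place of TPM. Relative to the most frequent ratio of coverage to FPKM, HMOX1 stood at 1.00 and HMOX2 at 0.0536. No order of the heme oxygenases is therefore drawn.

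**Figure D2:**
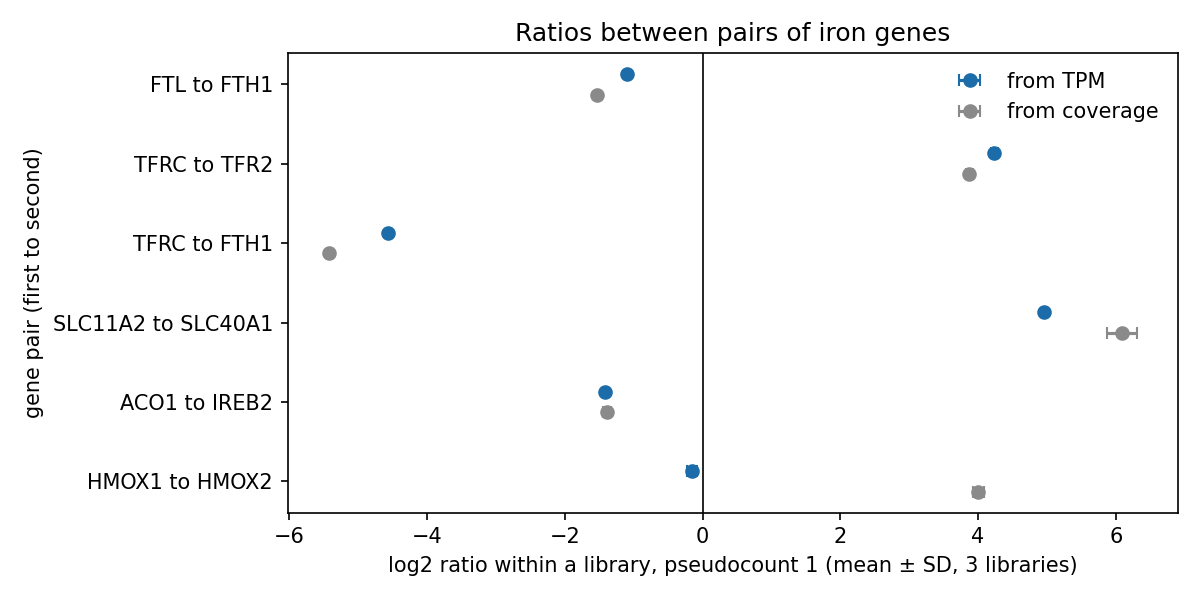
Log2 ratio within a library of 6 pairs of iron genes, with a pseudocount of 1, as the mean ± SD of 3 libraries, from TPM (blue) and from coverage (grey). The ratios lie on the same side of 0 by both measures for 5 pairs, and HMOX1 to HMOX2 goes from -0.15 to 4.01.

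Of all protein-coding rows, 59.5% had at least 1 TPM in all 3 libraries, the share to set beside the counts of this paragraph. Of 14 other genes of heme breakdown and transport, 12 did. BLVRB, a biliverdin reductase, had 305 ± 5.59 TPM, and MAFK, a partner of the repressor BACH1 and the activator NRF2, had 183 ± 10.1 TPM (SD, n = 3). HRG, a plasma protein that binds heme, was listed at 0 in all 3 libraries. In heme synthesis, 8 of 9 genes had at least 1 TPM throughout, with UROD at 78.5 ± 0.679 TPM and ALAS1, the first enzyme of the pathway outside red cells, at 72.4 ± 0.703 TPM (SD, n = 3). ALAS2, the red cell form, had 0.0614, 0.0809 and 0 TPM. All 17 genes of mitochondrial iron import and iron-sulfur cluster assembly had at least 1 TPM throughout, led by BOLA3 (119 ± 7.64 TPM), GLRX5 (109.8 ± 8.90 TPM) and ISCA1 (81.0 ± 3.31 TPM, SD, n = 3). Over the 10 lists of other iron genes together, 84 of 103 genes reached 1 TPM in every library, and 6 had a value of 0 throughout. The lists were chosen with earlier results known, so these counts are a description.

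**Figure D3:**
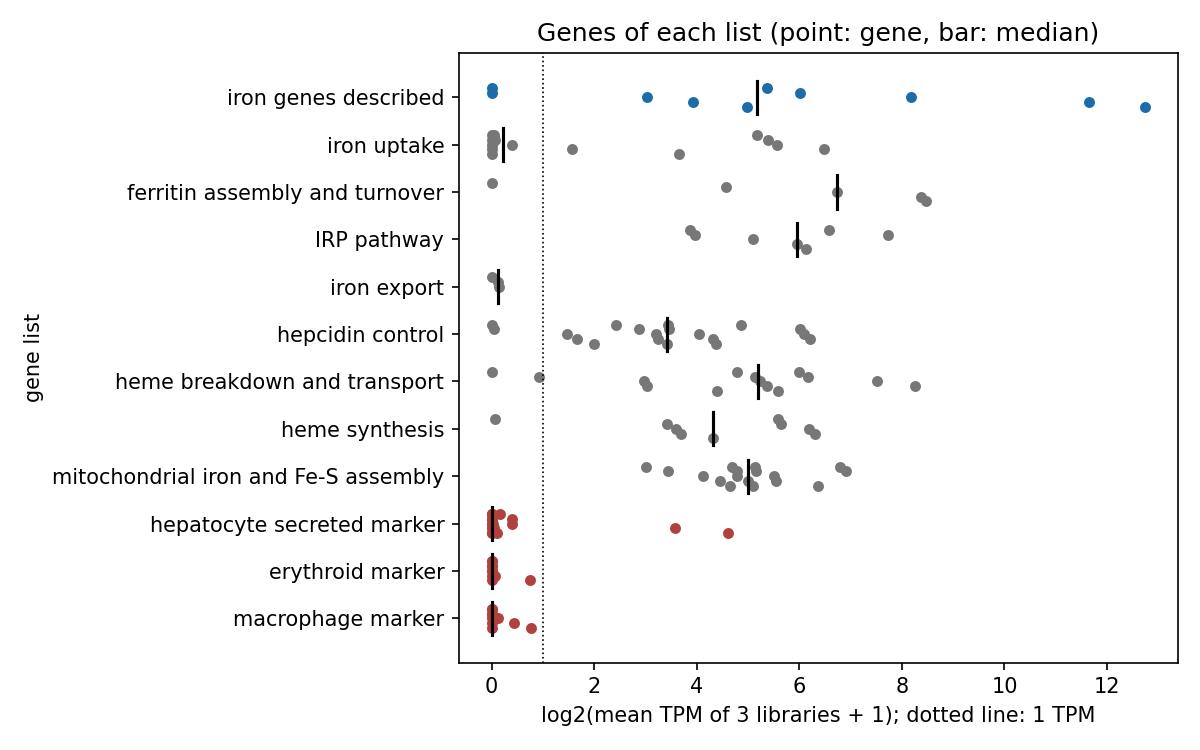
Mean level of each gene, as log2(mean TPM + 1), for the 10 iron genes (blue), lists of other iron genes (grey) and cell type markers (red), with a bar at each list's median and a dotted line at 1 TPM. The export list and the marker lists have medians below 1 TPM, as has the uptake list with a median of 0.178 TPM.

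The order of levels was FTH1, FTL, TFRC, HMOX1, IREB2, SLC11A2, TFR2, HFE, SLC40A1 and HAMP. Down to SLC40A1, the lowest library of each gene was above the highest library of the next. The closest neighbours were IREB2 and SLC11A2, with 38.9 TPM against 30.9 TPM, a factor of 1.26, followed by HMOX1 and IREB2 with a factor of 1.46. SLC40A1 and HAMP overlapped, since both were listed at 0 in replicate 1. By coverage, the ranges of SLC11A2 (64.3 to 76.7) and TFR2 (56.8 to 69.1) overlapped only when the libraries were pooled. Within each library SLC11A2 was higher, with 76.7 against 69.1, 73.8 against 66.4 and 64.3 against 56.8 in replicates 1, 2 and 3.

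The spread of the genes between libraries is given beside that of other genes. The range of log2(TPM + 1) was 0.18 for TFRC, 0.14 for FTH1, 0.13 for IREB2, 0.11 for FTL, 0.09 for TFR2, 0.07 for HFE and HMOX1, and 0.03 for SLC11A2. None of the 10 had a range above 1. Of the 8419 genes averaging 10 TPM or more, 0.273% had such a range, so this does not set the 10 apart. SLC40A1 and HAMP, at or near 0, could not reach it with a pseudocount of 1. The median range of the 8419 genes was 0.13, and HFE, SLC40A1 and HAMP are not among them. Of these 8419 genes, SLC11A2 varied less than all but 3.79%, and TFRC more than 71.2%. Of the 8 genes with at least 1 TPM, 7 were highest in replicate 1 and 7 were lowest in replicate 3. Among all genes averaging 10 TPM or more, 62.5% were highest in replicate 1 and 49.3% lowest in replicate 3, and the ratio of coverage to FPKM given above was also highest in replicate 1 and lowest in replicate 3. The part of depth in these differences was not tested.

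**Figure D4:**
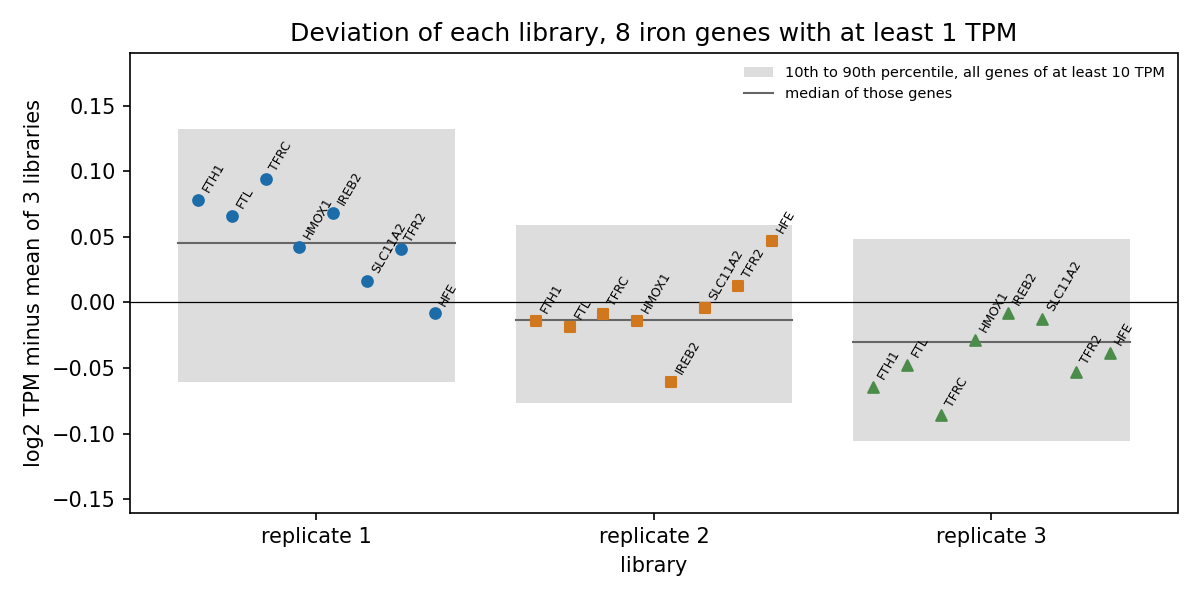
Deviation of log2 TPM in each library from the gene's mean over 3 libraries, for the 8 iron genes with at least 1 TPM (points), with the 10th to 90th percentile (grey band) and median (grey line) of all genes averaging 10 TPM or more. All 24 points lie within the band of their library.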

How the data were processed

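The data are RNA-seq of 3 libraries that carry the label HepG2, wild-type. Reads of 150 bp were sequenced from both ends. The submitters' processing notes name FastQC 0.11.8, Trim Galore 0.6.2, STAR 2.6.1a, StringTie with no version, and the GRCh38 build. The annotation and strand setting are not given in the sources used here. The authors deposited TPM, FPKM and coverage, a signal not scaled for library size, in 1 table per library. Without counts, the depth and its precision are unknown, and the errors given are SDs of 3 libraries.

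The tables were joined on gene and coordinates (43389 rows), and rows on references with plain names, without the "_" of alternate and unplaced sequences, were used (39320). Genes were counted at 1 and 10 TPM, and ranges of log2(TPM + 1) above 1 at a mean of at least 10 TPM. Gene pairs were compared by an exact permutation test that flips signs, two-sided, with Benjamini-Hochberg adjustment. No comparison between conditions was possible.

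The members and lists were chosen with earlier results of these data known. Named were the members, the 3 highest genes and those at 0 of each list, ferritin pseudogenes, overlapping rows and the 2 genes nearest to FTH1, FTL and TFRC, by the largest log2 difference over libraries. Some genes that this rule names are not reported here. HERC2, CP, HEPHL1, HEPH, TF, HP, HPX, BMP6, TMPRSS6, ALAS2, FBXL5, the marker genes and the NRF2 regulators were named after their values were seen. Protein-coding rows follow RefSeq (GRCh38.p14). Calculations were tested on simulated data and used Python 3.11.15, numpy 2.4.6, pandas 2.3.3 and matplotlib 3.10.9. Alternatives tried were other scalings, limits and pseudocounts, FPKM or coverage in place of TPM, and each replicate left out.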

Additional observations from a re-analysis of the deposited data

How the results depend on the processing

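The levels moved by more than the SD between libraries under 2 scalings, which act on every gene by nearly the same factor because they remove a share of TPM from other rows. Scaling without mitochondrially encoded genes shifted the median gene by 0.32 on the log2 scale and gave mean TPM of 8535 for FTH1, 3993 for FTL, 359 for TFRC, 79.2 for HMOX1, 50.8 for IREB2, 38.2 for SLC11A2, 17.9 for TFR2 and 9.02 for HFE. With the FPKM of TRNC recomputed from its coverage, the shift was 0.27 and the means were 8198, 3835, 345, 76.0, 48.7, 36.7, 17.2 and 8.66 TPM. The ferritin share of 1.00% became 1.25% and 1.203% under these scalings and 1.47% by coverage. The ratio of HMOX1 to HMOX2 reversed to 4.01 by coverage; the cause was not tested. The share of genes that HFE exceeded, 31.7%, was 49.9% with a minimum mean of 0.1 TPM, 76.1% with no filter, 23.9% among protein-coding genes and 42.1% by coverage, and that of TFR2, 48.1%, was 61.9%, 81.9%, 41.0% and 54.4%. The ratio of TFRC to FTH1 was -5.42 by coverage. The other 5 ratios kept their direction, and no setting can give p below 0.25. Genes with a range above 1 numbered 23, against 173 with a minimum mean of 1 TPM and 255 with no filter, 10 to 16 when a replicate was left out, 15 without replicate 1 and 10 without replicate 2. The iron genes with a range above 1 were 0 under every one of these settings. Members with at least 1 TPM numbered 8, and 7 at a minimum of 10 TPM. The means with a replicate left out ranged from 6635 to 6972 TPM for FTH1, 3117 to 3243 for FTL and 278 to 296 for TFRC, a range that by construction stays within 1 SD. No paired analysis was possible because these libraries form 1 condition.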

Other observations

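FTH1, FTL and HMOX1 are also known as targets of NRF2, the regulator of the oxidative stress response. Of 11 other NRF2 targets, 9 reached 10 TPM in every library, where 40.4% of protein-coding rows did. TXNRD1, a thioredoxin reductase, had 381 ± 28.7 TPM, NQO1, a quinone reductase, had 204 ± 4.44 TPM, and SRXN1, a sulfiredoxin, had 99.6 ± 5.61 TPM (SD, n = 3). NFE2L2, the gene of NRF2, had 69.0, 58.4 and 60.02 TPM, and KEAP1, its inhibitor, had 36.9, 36.8 and 35.8 TPM. AKR1C1 and AKR1B10 were the lowest of the list with 0.965 ± 0.133 and 0.546 ± 0.0918 TPM (SD, n = 3).

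Of 5 other genes whose mRNA is known to carry an IRE, 4 had at least 1 TPM in all 3 libraries. Of protein-coding rows, 59.5% did. EPAS1, a hypoxia-inducible factor, had 57.6 ± 3.72 TPM, and CDC42BPA, a kinase, had 12.1 ± 0.969 TPM (SD, n = 3). The ratio of coverage to FPKM relative to its most frequent value was 0.195 for EPAS1 and 0.661 for CDC42BPA.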
